A study of Homo sapiens with 8 samples.

Results

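The integrin subunits outside hemidesmosomes are 10 genes, chosen by name: ITGB1, ITGB3, ITGB5, ITGB6, ITGB8, ITGAV, ITGA1, ITGA2, ITGA3 and ITGA5. All 10 were in the table of 13771 genes. RNA-seq was done on 8 libraries of human breast epithelial cells in 4 groups of 2. MCF10A, a non-tumorigenic line, and DCIS.COM, a line of the same MCF10 family that grows as ductal carcinoma in situ in mice, were each transduced with a lentiviral pCDH vector, either empty (pCDH-empty) or carrying the long non-coding RNA HOTAIR (pCDH-HOTAIR). All groups therefore carried the vector and had passed puromycin selection. HOTAIR was expressed from the vector in cultured cells, and none of the sources used here says that the 2 libraries of a group came from separate transductions or cultures, so p-values measure the spread between these libraries, which may be technical. MCF10A was grown with epidermal growth factor, hydrocortisone, insulin and cholera toxin besides serum and DCIS.COM with serum alone, so that line and medium cannot be told apart in any comparison between the lines.

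Integrins are receptors made of an alpha and a beta subunit that bind extracellular matrix outside the cell and, through talin and kindlin, the actin cytoskeleton inside it. The beta1 subunit pairs with many alpha subunits, among them the collagen-binding alpha1 and alpha2, the laminin-binding alpha3 and the fibronectin-binding alpha5. The alphaV subunit pairs with beta1, beta3, beta5, beta6 or beta8, and these receptors bind matrix proteins such as vitronectin and fibronectin or the latent form of TGF-beta. Hemidesmosomes use another receptor, alpha6beta4, which anchors basal epithelial cells to laminin through keratin filaments.

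The libraries held 19306864 to 34884841 reads, and HOTAIR had 40 to 140 reads in the pCDH-empty libraries against 4614 to 7166 in the pCDH-HOTAIR libraries, the order the labels give. The library DCIS.COM pCDH-empty 1 stood apart. The Euclidean distance between its log2 CPM profile and that of pCDH-empty 2 was 46.4, whereas the libraries of the other groups were 22.3 to 29.9 apart. The nearest DCIS.COM pCDH-HOTAIR library was 50.2 from pCDH-empty 1 and 28.7 from pCDH-empty 2. For the integrin subunits outside hemidesmosomes, values without pCDH-empty 1 are given where leaving it out changed a call or a sign, or moved an effect of HOTAIR by over 1.5 times. The hemidesmosome subunits and the other gene lists are given with all libraries, and their HOTAIR values may depend on it. The epithelial marker CDH1 had 270.2 to 458 CPM. None of the 4 fibroblast and none of the 3 leukocyte markers listed was in the table, and of the 3 endothelial markers only PECAM1 was, at 1.70 to 13.3 CPM. The summed CPM of 4 basal epithelial markers (KRT5, KRT14, KRT17, TP63) was 8927 to 10205 in MCF10A and 1244 to 1578 in DCIS.COM, and that of 4 luminal markers (KRT8, KRT18, KRT19, EPCAM) was 1204 to 1269 and 4607 to 5976. TP63 alone of the basal markers was called higher in DCIS.COM with pCDH-empty. These lists moved with every difference between the lines described here, and their part in it was not tested.

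Most of the subunits differed between the cell lines, and none was called between the vectors. In the pCDH-empty libraries, ITGA1, ITGA5, ITGB1, ITGB6 and ITGAV were lower in DCIS.COM than in MCF10A, and ITGB3, ITGB5, ITGB8 and ITGA3 were higher. Calls required under 0.05 for the limma p-value after Benjamini-Hochberg adjustment over all genes, together with a 1.5-fold difference or more. By this rule 9 of the 10 subunits were called, 4 higher and 5 lower, where 22.5% of all genes were called higher and 23.8% lower. In the pCDH-HOTAIR libraries, which share no library with the former, 8 were called, 3 higher and 5 lower, against a background of 22% higher and 21.7% lower. The libraries of the lines did not overlap for any of the 10 subunits in either comparison, 4 being higher and 6 lower. Of all genes, 40.7% were higher and 40.9% lower without overlap for pCDH-empty, and the shares for pCDH-HOTAIR were 44.8% and 44.3%. The median log2 fold change of the 10 was -0.63 with pCDH-empty and -0.48 with pCDH-HOTAIR, beside -0.00012 and 0.0035 over all genes.

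**Figure D1:**
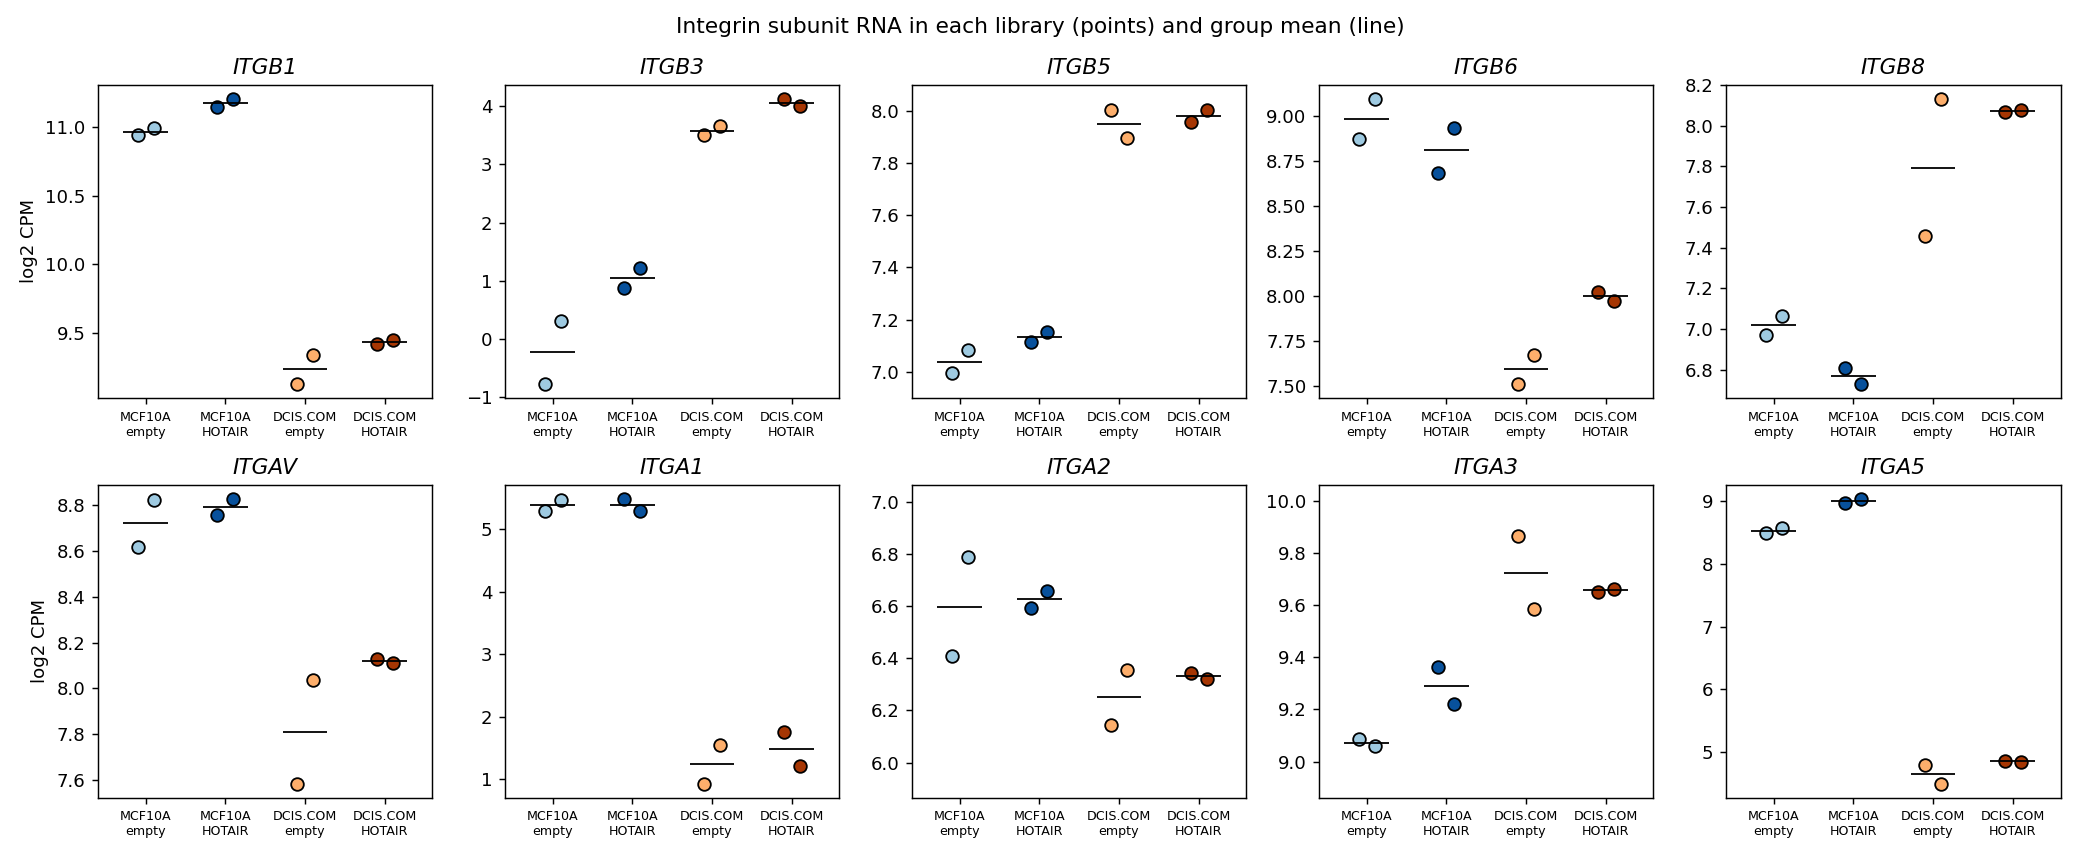
Each panel plots the log2 CPM of a subunit on its own vertical axis in the 8 libraries (points), with the mean of each group of 2 as a line. ITGB1, ITGA1 and ITGA5 sit lower in the 4 DCIS.COM libraries than in the 4 MCF10A libraries, ITGB3 sits higher, and the DCIS.COM pCDH-empty points of ITGB8 lie apart at 7.46 and 8.13.

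With HOTAIR, no subunit was called in either line. In MCF10A, 0 of 10 passed, where 0.0218% of all genes were called higher and 0% lower, and 3 of 10 had an unadjusted p-value under 0.05, as had 7.28% of all genes. In DCIS.COM, 0 of 10 passed, where 0.0871% of all genes were called higher and 0% lower, and 2 of 10 had an unadjusted p-value under 0.05, beside 17.5% of all genes. The limma-voom test on recovered reads also called 0 in both lines. Since 2 libraries per group allow no two-sided exact permutation p-value smaller than 0.333, no such test was made of single genes.

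ITGB1 encodes the beta1 subunit, the common partner of most alpha subunits (Entrez gene 3688, GRCh37 chromosome 10, 33176201 to 33294720, minus strand). Its log2 CPM was 10.94 and 10.99 in MCF10A pCDH-empty, 11.15 and 11.20 in MCF10A pCDH-HOTAIR, 9.13 and 9.34 in DCIS.COM pCDH-empty, and 9.42 and 9.45 in DCIS.COM pCDH-HOTAIR. All MCF10A libraries lay above all DCIS.COM libraries, and within each line both pCDH-HOTAIR libraries lay above both pCDH-empty libraries. The level in DCIS.COM was 3.32-fold lower with pCDH-empty (log2 fold change -1.73, standard error 0.085, adjusted p = 7.0e-07 from limma) and 3.34-fold lower with pCDH-HOTAIR. The log2 fold change with HOTAIR was 0.21 in MCF10A (adjusted p = 0.641) and 0.20 in DCIS.COM (adjusted p = 0.282), 0.092 in the latter without pCDH-empty 1. In bulk RNA, fewer cells that express a gene and less RNA per cell cannot be told apart, here and for all genes that follow.

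ITGAV encodes the alphaV subunit (Entrez gene 3685, chromosome 2, 187454737 to 187545628). The log2 CPM of ITGAV was 8.62 and 8.83 in MCF10A pCDH-empty, 8.76 and 8.83 in MCF10A pCDH-HOTAIR, 7.58 and 8.04 in DCIS.COM pCDH-empty, and 8.13 and 8.11 in DCIS.COM pCDH-HOTAIR. DCIS.COM was 1.88-fold lower with pCDH-empty (adjusted p = 0.00052) and 1.60-fold lower with pCDH-HOTAIR (adjusted p = 0.00287). With a loess correction on GC content, chosen after seeing the data, the former log2 fold change was -0.53, under the fold threshold. With HOTAIR, the DCIS.COM libraries did not overlap (log2 fold change 0.31, adjusted p = 0.292), but the value was 0.082 without pCDH-empty 1 and -0.036 with the GC correction.

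ITGB6 encodes beta6, an epithelial partner of alphaV whose receptor binds and activates latent TGF-beta (Entrez gene 3694, chromosome 2, 160956178 to 161056824, minus strand). Its log2 CPM was 8.87 and 9.09 in MCF10A pCDH-empty, 8.68 and 8.93 in MCF10A pCDH-HOTAIR, 7.51 and 7.67 in DCIS.COM pCDH-empty, and 8.02 and 7.97 in DCIS.COM pCDH-HOTAIR. The vector groups overlapped in MCF10A, and in DCIS.COM both pCDH-HOTAIR libraries were the higher ones. DCIS.COM was 2.62-fold lower than MCF10A with pCDH-empty (adjusted p = 1.02e-05) and 1.75-fold lower with pCDH-HOTAIR (adjusted p = 0.00026). With HOTAIR, the log2 fold change was -0.17 in MCF10A (adjusted p = 0.842) and 0.41 in DCIS.COM (standard error 0.109, adjusted p = 0.208), where it was 0.33 without pCDH-empty 1. The difference of these effects was 0.58, with a 95% interval of 0.22 to 0.93 and an adjusted p = 0.357. It was the only subunit with an unadjusted p-value under 0.05 for that difference, 1 of 10 beside 10.5% of all genes, and 0 of 10 were called, beside 0.0436% of all genes.

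ITGB8 encodes beta8, another alphaV partner that binds latent TGF-beta (Entrez gene 3696, chromosome 7, 20370325 to 20455377). In log2 CPM, ITGB8 stood at 6.97 and 7.06 in MCF10A pCDH-empty, 6.81 and 6.73 in MCF10A pCDH-HOTAIR, 7.46 and 8.13 in DCIS.COM pCDH-empty, and 8.07 and 8.08 in DCIS.COM pCDH-HOTAIR. The spread between the DCIS.COM pCDH-empty libraries was the widest of its groups, pCDH-empty 1 being the low one. DCIS.COM was 1.71-fold higher with pCDH-empty (adjusted p = 0.0054). That log2 fold change of 0.78 was 1.11 without pCDH-empty 1 and 0.44, under the fold threshold, without pCDH-empty 2. With pCDH-HOTAIR, ITGB8 was 2.47-fold higher in DCIS.COM (adjusted p = 0.000326). Its log2 fold change with HOTAIR in DCIS.COM was 0.28 (adjusted p = 0.409), and it was -0.059 without pCDH-empty 1 and 0.62 without pCDH-empty 2. In MCF10A both pCDH-HOTAIR libraries were lower than both pCDH-empty libraries, at a log2 fold change of -0.25 (adjusted p = 0.878).

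ITGB5 encodes beta5, the subunit of a vitronectin receptor with alphaV (Entrez gene 3693, chromosome 3, 124480795 to 124620265, minus strand). In log2 CPM, ITGB5 stood at 6.99 and 7.08 in MCF10A pCDH-empty, 7.11 and 7.15 in MCF10A pCDH-HOTAIR, 8.00 and 7.90 in DCIS.COM pCDH-empty, and 7.96 and 8.00 in DCIS.COM pCDH-HOTAIR. All DCIS.COM libraries lay above all MCF10A libraries. DCIS.COM was 1.88-fold higher with pCDH-empty (adjusted p = 6.63e-06) and 1.80-fold higher with pCDH-HOTAIR (adjusted p = 1.05e-05). The 95% interval of the log2 fold change with HOTAIR ran from -0.059 to 0.25 in MCF10A and from -0.12 to 0.18 in DCIS.COM, intervals that exclude a 1.5-fold change in this fit. The DCIS.COM value was 0.031, and 0.085 without pCDH-empty 1.

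ITGB3 encodes beta3, which forms the alphaVbeta3 receptor and, in platelets, the fibrinogen receptor (Entrez gene 3690, chromosome 17, 45331193 to 45391109). It was the rarest subunit in MCF10A, with 16 and 31 reads in pCDH-empty and 34 and 45 in pCDH-HOTAIR, and had 338 and 336 reads in DCIS.COM pCDH-empty and 617 and 537 in DCIS.COM pCDH-HOTAIR. On the log2 CPM scale these were -0.77 and 0.31, 0.87 and 1.22, 3.50 and 3.66, and 4.12 and 4.01. The 4 groups lay in this order with no overlap. DCIS.COM was 14.0-fold higher with pCDH-empty (log2 fold change 3.81, standard error 0.313, adjusted p = 1.38e-05) and 8.12-fold higher with pCDH-HOTAIR (adjusted p = 5.64e-05). The former log2 fold change was 3.27 without MCF10A pCDH-empty 1 and 4.35 without MCF10A pCDH-empty 2. Under the alternatives that left out no library, it was 2.83 or more. With HOTAIR, the log2 fold change was 1.28 in MCF10A (adjusted p = 0.324, from 0.0858 to 0.957 over the alternatives), between 0.74 without pCDH-empty 1 and 1.82 without pCDH-empty 2, and the study lists the gene as changed on these same libraries, so its direction there is not independent evidence. In DCIS.COM it was 0.49 (standard error 0.313, adjusted p = 0.404) and ranged from 0.41 to 0.57 with each pCDH-empty library left out.

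**Figure D2:**
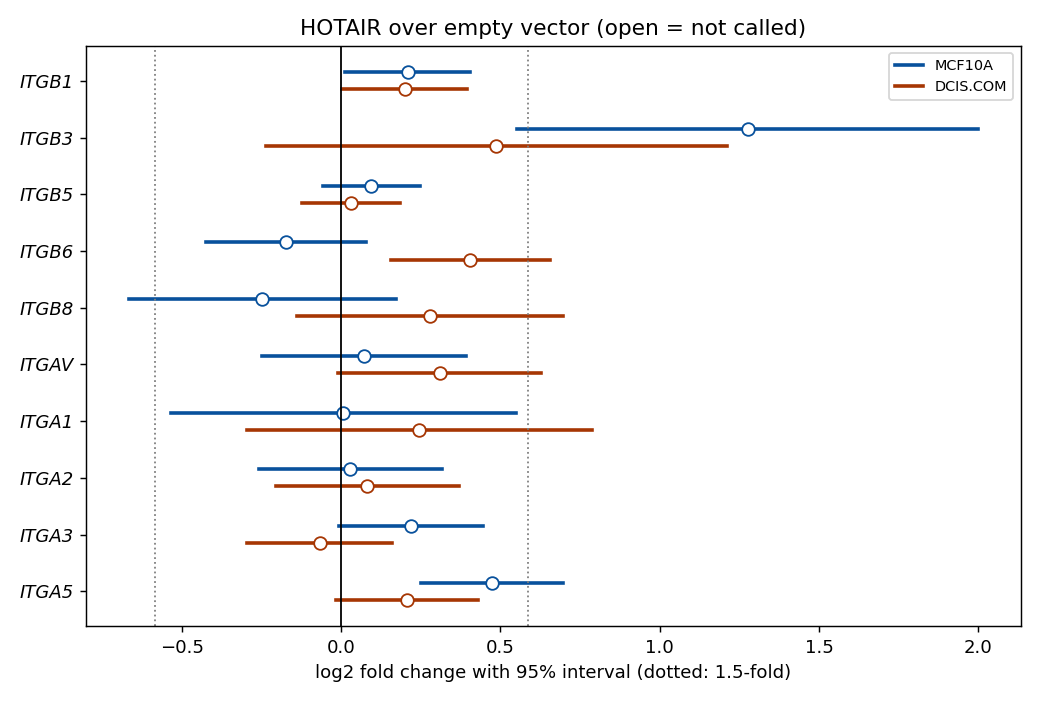
The log2 fold change of pCDH-HOTAIR over pCDH-empty (points) with its 95% interval from limma (lines) is shown for each subunit in MCF10A (blue) and DCIS.COM (brown), with dotted lines at a 1.5-fold change. All points are open, since no subunit was called, and in MCF10A the interval of ITGB3 is the widest, around 1.28.

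ITGA5 encodes alpha5, which with beta1 forms the main fibronectin receptor (Entrez gene 3678, chromosome 12, 54789045 to 54813050, minus strand). Its log2 CPM was 8.49 and 8.57 in MCF10A pCDH-empty, 8.97 and 9.03 in MCF10A pCDH-HOTAIR, 4.80 and 4.50 in DCIS.COM pCDH-empty, and 4.87 and 4.85 in DCIS.COM pCDH-HOTAIR. In reads this was 9731 to 11204 in MCF10A and 606 to 1036 in DCIS.COM. DCIS.COM was 14.7-fold lower with pCDH-empty (log2 fold change -3.88, standard error 0.096, adjusted p = 3.12e-08) and 17.7-fold lower with pCDH-HOTAIR (adjusted p = 2.41e-08). In MCF10A both pCDH-HOTAIR libraries lay above both pCDH-empty libraries, a 1.39-fold difference (log2 fold change 0.47, 95% interval 0.25 to 0.70, adjusted p = 0.244). Over the alternatives this value stayed between 0.43 and 0.51 with adjusted p-values from 0.00312 to 0.811, the lowest without DCIS.COM pCDH-empty 2, and was under the fold threshold in all of them. In DCIS.COM the log2 fold change with HOTAIR was 0.21 (adjusted p = 0.306), 0.35 without pCDH-empty 1 and 0.057 without pCDH-empty 2.

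ITGA1 encodes alpha1, the subunit of a collagen receptor with beta1 (Entrez gene 3672, chromosome 5, 52083750 to 52255039). Its reads were 1227 and 1183 in MCF10A pCDH-empty, 869 and 787 in MCF10A pCDH-HOTAIR, 55 and 76 in DCIS.COM pCDH-empty, and 117 and 75 in DCIS.COM pCDH-HOTAIR, or 5.30 and 5.48, 5.49 and 5.30, 0.93 and 1.54, and 1.75 and 1.21 in log2 CPM. The lines lay far apart and the vector groups overlapped in both. DCIS.COM was 17.8-fold lower with pCDH-empty (log2 fold change -4.16, standard error 0.234, adjusted p = 1.55e-06) and 15.1-fold lower with pCDH-HOTAIR (adjusted p = 2.24e-06). With HOTAIR, the DCIS.COM value was 0.24 on the log2 scale (adjusted p = 0.562), and -0.062 without pCDH-empty 1. PELO, a ribosome rescue factor on the same strand, overlaps ITGA1 and is annotated from the same start, so reads at that start are uncertain between them. PELO was chosen after the values were seen. It was 1.42-fold lower in DCIS.COM with pCDH-empty (adjusted p = 0.00056), with 914 to 1622 reads in the pCDH-empty libraries.

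ITGA3 encodes alpha3, which with beta1 binds the laminins of the epithelial basement membrane (Entrez gene 3675, chromosome 17, 48133332 to 48167845). Its log2 CPM was 9.09 and 9.06 in MCF10A pCDH-empty, 9.36 and 9.22 in MCF10A pCDH-HOTAIR, 9.86 and 9.58 in DCIS.COM pCDH-empty, and 9.65 and 9.66 in DCIS.COM pCDH-HOTAIR. DCIS.COM was 1.57-fold higher with pCDH-empty (adjusted p = 0.000501), but the log2 fold change of 0.65 was 0.51 without pCDH-empty 1 and 0.54 with the GC correction, both under the fold threshold. With pCDH-HOTAIR it was 0.36 (adjusted p = 0.0113), not called for its size. With HOTAIR it was 0.22 in MCF10A (adjusted p = 0.706) and -0.068 in DCIS.COM (adjusted p = 0.707), where it was 0.072 without pCDH-empty 1.

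ITGA2 encodes alpha2, the other collagen-binding partner of beta1 (Entrez gene 3673, chromosome 5, 52285170 to 52390609). The 8 libraries gave ITGA2 a log2 CPM of 6.41 and 6.79 in MCF10A pCDH-empty, 6.59 and 6.66 in MCF10A pCDH-HOTAIR, 6.14 and 6.36 in DCIS.COM pCDH-empty, and 6.34 and 6.32 in DCIS.COM pCDH-HOTAIR. It was the subunit whose level varied least over the 8 libraries, with an SD of its log2 CPM of 0.197, and the only one called in neither comparison of the lines. The log2 fold change of DCIS.COM over MCF10A was -0.35 with pCDH-empty (adjusted p = 0.0362) and -0.29 with pCDH-HOTAIR (adjusted p = 0.0674). With HOTAIR it was 0.082 in DCIS.COM (adjusted p = 0.721), and -0.024 without pCDH-empty 1.

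**Figure D3:**
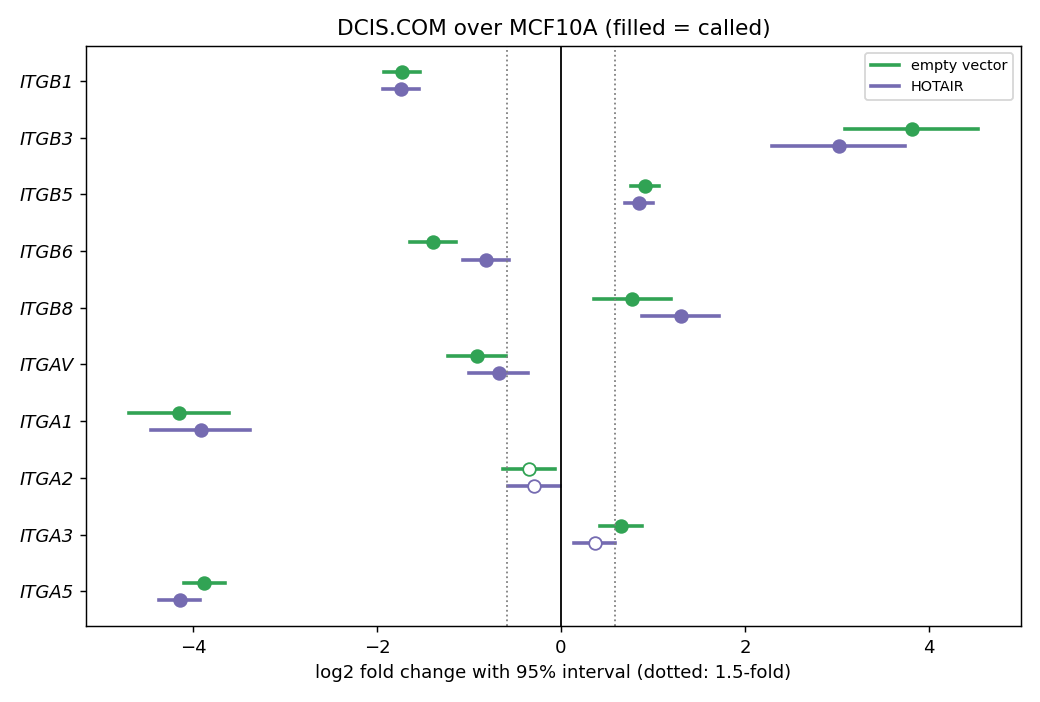
The log2 fold change of DCIS.COM over MCF10A with its 95% interval from limma is shown for each subunit in the pCDH-empty (green) and pCDH-HOTAIR (purple) libraries, with dotted lines at a 1.5-fold change. Filled points were called, and ITGA1, ITGA5, ITGB1 and ITGB3 lie farthest from 0.

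The promoter windows of ITGA5, ITGA1 and ITGB6 are printed because ITGA5 and ITGA1 had the largest decreases in DCIS.COM relative to MCF10A, and ITGB6 was lower there while ITGB3, ITGB5 and ITGB8 were higher. They run from 250 bases before to 50 bases after an annotated start in RefSeq on GRCh38.p14, a later build than that of the gene positions above, and 12 windows of 8 of the 10 subunits matched by symbol. Capitals mark matches, on either strand, to an AP1 site (TGANTCA), a GC box (GGGCGG), a TEAD site (GGAATG), a hypoxia response element core (ACGTG) or an E-box (CAGGTG).
ITGA5, chr12:54419217-54419516, minus strand: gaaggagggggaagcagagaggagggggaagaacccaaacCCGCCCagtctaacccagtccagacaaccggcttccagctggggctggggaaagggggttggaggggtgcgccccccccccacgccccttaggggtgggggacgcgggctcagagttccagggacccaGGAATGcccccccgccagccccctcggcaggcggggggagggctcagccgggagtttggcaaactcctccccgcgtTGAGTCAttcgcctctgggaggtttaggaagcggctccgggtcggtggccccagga
ITGA1, chr5:52787666-52787965, plus strand: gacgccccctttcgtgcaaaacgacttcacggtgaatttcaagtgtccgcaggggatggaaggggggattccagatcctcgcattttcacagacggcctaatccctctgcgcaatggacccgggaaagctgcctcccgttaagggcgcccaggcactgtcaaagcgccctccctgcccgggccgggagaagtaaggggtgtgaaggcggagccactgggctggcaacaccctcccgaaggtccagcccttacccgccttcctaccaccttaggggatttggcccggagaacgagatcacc
ITGB6, chr2:160200223-160200522, minus strand: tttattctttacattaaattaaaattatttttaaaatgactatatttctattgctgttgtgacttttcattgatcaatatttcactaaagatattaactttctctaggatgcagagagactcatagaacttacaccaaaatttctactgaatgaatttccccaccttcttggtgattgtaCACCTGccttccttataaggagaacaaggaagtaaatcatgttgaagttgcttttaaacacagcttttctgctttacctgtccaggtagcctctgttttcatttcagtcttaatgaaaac

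In the ITGA5 window, the matches began 210 bases (GC box), 82 bases (TEAD site) and 6 bases (AP1 site) before the start, and none overlapped another. The ITGA1 window held no match, and PELO is annotated with the same window. The ITGB6 window held an E-box that began 70 bases before the start. It had no CpG dinucleotide and 31.7% GC, whereas the ITGA5 window had 16 CpG and 69.3% GC, the ITGA1 window 19 and 61.7%, and the median of all 35116 promoters was 14 and 58.7%. ITGA5 had the only AP1 site among the 12 windows, and 7.71% of all promoters held one. A GC box was in 7 of the 12, in windows of ITGB5, ITGA2, ITGB8, ITGB1 and ITGA5, and in 45.0% of all promoters. A TEAD site was in 2 (ITGB1 and ITGA5) and in 14.0% of all, an E-box in 2 (ITGB6 and ITGB5) and in 20.6% of all, and ACGTG in 0, beside 21.4% of all. A match describes letters and says nothing of binding.

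Per transcript length, ITGB1 was the most abundant subunit in MCF10A, at 535 ± 12.8 CPM per kb with pCDH-empty (SD, n = 2), 4.86 times ITGA3. The order below it was ITGA3, ITGB6, ITGA5, ITGAV, ITGB5, ITGB8, ITGA2, ITGA1 and ITGB3, in which the libraries of ITGA3 and ITGB6 and those of ITGB8 and ITGA2 overlapped and the other neighbours did not. In DCIS.COM pCDH-empty the order was ITGA3, ITGB1, ITGB5, ITGB6, ITGAV, ITGB8, ITGA2, ITGA5, ITGB3 and ITGA1, with overlap of ITGA3 and ITGB1 and of ITGAV and ITGB8. ITGA3 led there at 174 ± 23.7 CPM per kb and ITGB1 followed at 162 ± 16.9 (SD, n = 2 each). With pCDH-HOTAIR, ITGB1 led in both lines, at 619 ± 17.5 and 185 ± 2.35 CPM per kb.

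**Figure D4:**
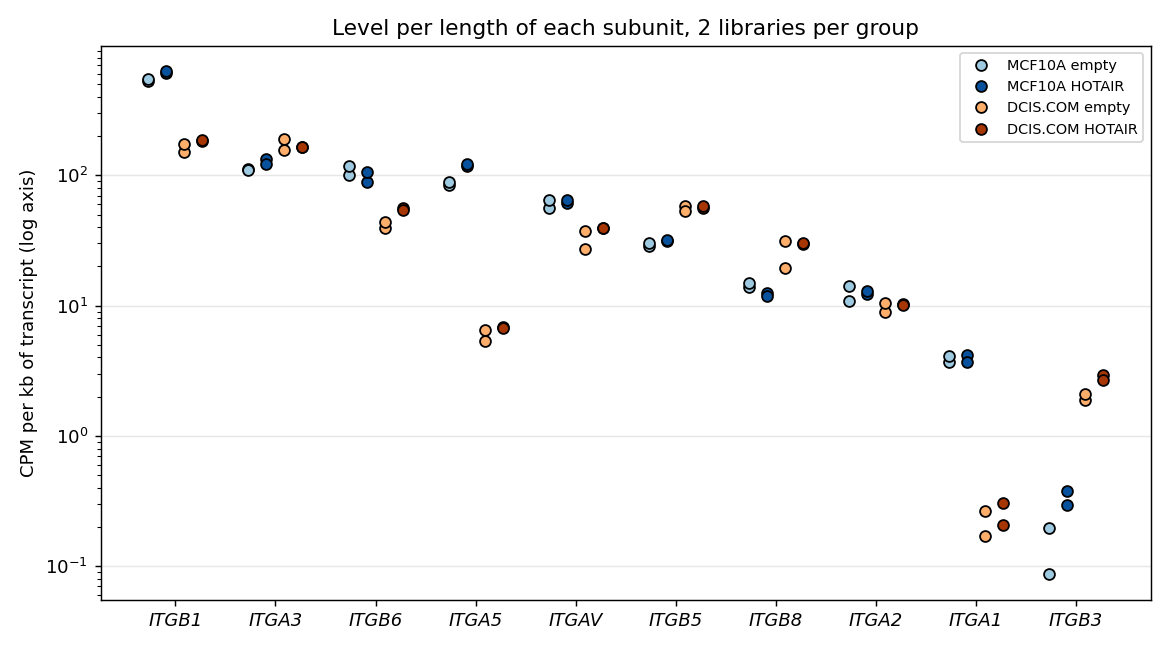
The level of each subunit in CPM per kb of its canonical transcript (log axis) is plotted for the 8 libraries, coloured by group. The members span from 0.0864 (ITGB3, MCF10A) to 631 CPM per kb (ITGB1, MCF10A), and ITGA5 lies above ITGA2 in MCF10A and below it in DCIS.COM.

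The make-up of the possible partners differed between the lines, as shares of the summed CPM per kb. Among the alpha subunits that pair with beta1 (ITGA1, ITGA2, ITGA3 and ITGA5), ITGA3 took 46.6% to 52.9% in the MCF10A libraries and 90.4% to 92.4% in the DCIS.COM libraries. ITGA5 took 40.2% to 47.0% in MCF10A and 3.07% to 3.77% in DCIS.COM. For ITGA1, ITGA3 and ITGA5, the range in MCF10A did not overlap that in DCIS.COM. The share of ITGA2 overlapped, at 4.57% to 6.50% in MCF10A and 4.37% to 6.03% in DCIS.COM. Among the beta subunits that pair with alphaV alone or mainly (ITGB3, ITGB5, ITGB6 and ITGB8), ITGB6 took 66.8% to 72.1% in MCF10A and 33.1% to 38.6% in DCIS.COM, where ITGB5 took 38.7% to 48.8% and ITGB8 16.5% to 23.9%. ITGB3 stayed at or under 2.02% in all libraries. These are shares of RNA, and a share also moves when another member of the sum moves.

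The hemidesmosome subunits were compared as the nearest relatives. ITGB4 was 4.45-fold higher in DCIS.COM with pCDH-empty (log2 fold change 2.15, adjusted p = 1.41e-06), and its gene overlaps GALK1 on the opposite strand. ITGA6, whose protein also pairs with beta1, had a log2 fold change of 0.40 (adjusted p = 0.00176), under the fold threshold. Neither was called with HOTAIR in either line.

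Of 14 other integrin genes listed, 5 were in the table. With pCDH-empty, ITGA10, a collagen-binding alpha subunit, was called higher in DCIS.COM (log2 fold change 3.43), and ITGB7, ITGB2 and ITGA4, known from leukocytes, were called lower (-3.43, -2.60 and -2.18). Of all genes, 22.5% were called higher and 23.8% lower. In DCIS.COM pCDH-empty, ITGB7 had 9 and 10 reads and ITGA4 had 10 and 19. ITGA10 had 21 and 17 reads in MCF10A pCDH-empty, so that the folds of ITGB7, ITGA4 and ITGA10 are uncertain. The median of the 5 was -2.18, beside -0.00012 over all genes.

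Among 16 matrix ligands in the table, 4 were called higher and 8 lower in DCIS.COM with pCDH-empty, and 3 higher and 10 lower with pCDH-HOTAIR. Of all genes, 22.5% were called higher and 23.8% lower with pCDH-empty, and 22% and 21.7% with pCDH-HOTAIR, shares that also stand beside the adaptor and TGF-beta counts that follow. The median log2 fold change of the ligands was -0.58 with pCDH-empty and -0.93 with pCDH-HOTAIR, the same with LAMA1 at its bound, beside -0.00012 and 0.0035 over all genes. FN1, which encodes fibronectin, the ligand of alpha5beta1, had 46481 to 68346 reads in MCF10A and 1253 to 1560 in DCIS.COM, and was 37.2-fold lower with pCDH-empty (log2 fold change -5.22, adjusted p = 2.52e-07). LAMA3, the alpha chain of the main epithelial laminin, was 13.3-fold lower. COL1A2, a chain of collagen I, had 105 reads over the MCF10A pCDH-empty libraries and 1 over the DCIS.COM pCDH-empty libraries, a ratio of 103 with an exact 95% counting interval of 18.1 to 4120. THBS1, which encodes the matrix protein thrombospondin-1, was 19.0-fold higher in DCIS.COM and CCN2, a matricellular protein, 4.20-fold higher. LAMA1, an embryonic laminin chain, had 0 reads in the MCF10A libraries and 97 over the DCIS.COM pCDH-empty libraries, and was at least 32.9-fold higher against a floor of 3 reads over the group. The intervals and the floor cover counting error only.

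Of 29 adaptors in the table, which link integrins to actin and to signalling, 6 were called higher and 15 lower in DCIS.COM with pCDH-empty, and 3 and 18 with pCDH-HOTAIR. The 6 of 29 called higher lay near the all-gene share of 22.5%. The median log2 fold change was -0.59 with pCDH-empty and -0.77 with pCDH-HOTAIR. FLNA, the actin cross-linker filamin A that binds beta tails, had 25703 to 32821 reads in MCF10A and 217 to 287 in DCIS.COM, and was 124-fold lower with pCDH-empty (log2 fold change -6.96, adjusted p = 6.02e-09). The tensins TNS1 and TNS4, which bind beta tails, were 60.2-fold and 36.0-fold lower, TNS1 with 8 and 1 reads in DCIS.COM pCDH-empty. TLN2, the second talin, was 11.6-fold higher in DCIS.COM, the actin cross-linker ACTN4 1.97-fold higher and the talin-binding KANK1 1.87-fold higher.

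Of 7 TGF-beta and LTBP family genes in the table (the latent TGF-beta list), 2 were called higher and 3 lower with pCDH-empty, at a median log2 fold change of -0.0097. With pCDH-HOTAIR, 1 was called higher and 4 lower, at a median of -0.67. LTBP2, LTBP1 and TGFB1 were lower in DCIS.COM (log2 fold change -3.11, -2.88 and -2.40), and LTBP3 and TGFB2 higher (1.06 and 0.67). LTBP1 and LTBP3 encode proteins that store latent TGF-beta in the matrix.

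**Figure D5:**
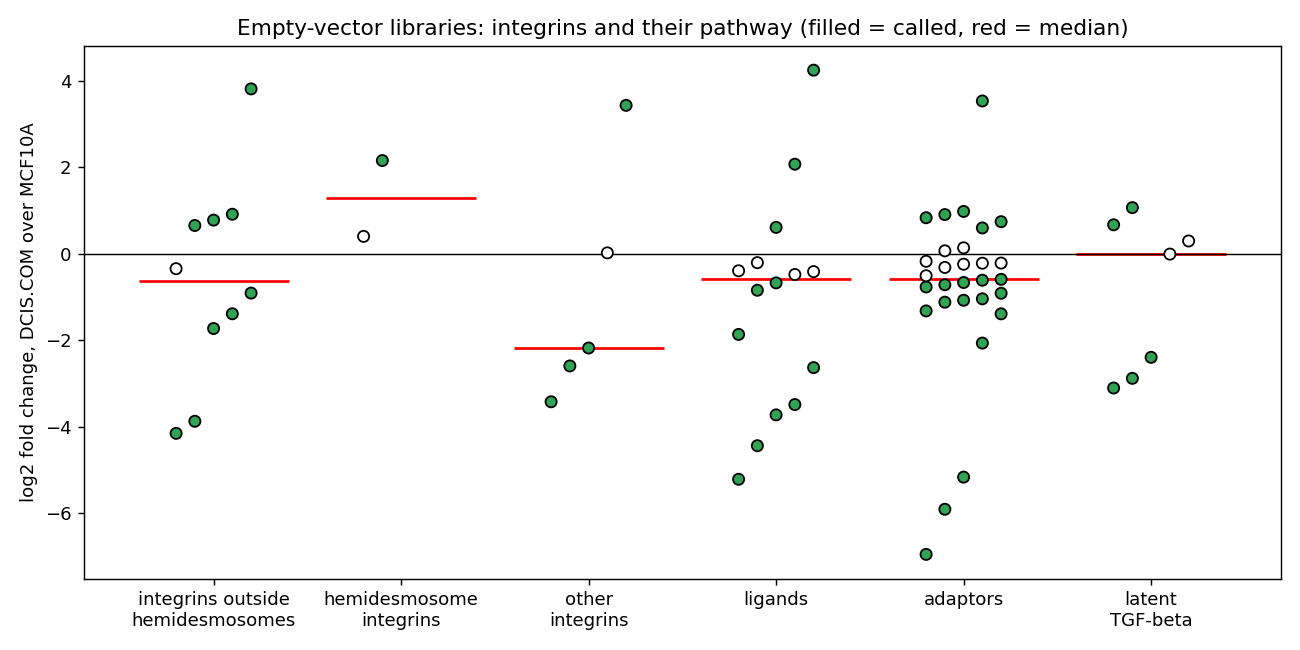
The log2 fold change of DCIS.COM over MCF10A in the pCDH-empty libraries is plotted for each gene of the 6 lists (points, filled where called), with the median of each list as a red line. LAMA1, at 0 reads in MCF10A, is counted in the median and not drawn, and the lowest point is FLNA at -6.96.

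For each subunit, the gene with the most similar profile was taken as the one with the smallest root mean square difference between log2 CPM profiles centred on their means, over 8 libraries and among genes with a mean log2 CPM of at least 0. For ITGB1 this was FAM114A1 (0.055), for ITGAV ERICH1 (0.051), for ITGB6 ANXA4 (0.062), for ITGB8 ESCO2 (0.067) and for ITGB3 PIK3AP1 (0.26). For ITGB5 it was the adaptor ACTN4 (0.036), for ITGA2 NBPF15 (0.058) and for ITGA3 GALNT18 (0.032). ITGA5 was most like SNAI2 (0.15), which encodes the transcription factor Slug, and ITGA1 most like TSC22D3 (0.16), a glucocorticoid-induced gene. SNAI2 was 15.2-fold and TSC22D3 18.7-fold lower in DCIS.COM with pCDH-empty. The profiles share libraries and depth.

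The HOTAIR effects over the 10 subunits are given by their counts. In MCF10A, 8 had a log2 fold change above 0 and 2 below (median 0.083, beside -0.0055 over all genes), 5 were higher without overlap of the libraries, as were 22.5% of all genes, and 1 was lower without overlap, as were 24.8%. In DCIS.COM, 9 were above 0 and 1 below (median 0.23, beside 0.010), 5 were higher without overlap against 24.7% of all genes, and 0 were lower without overlap against 24.5%. Without DCIS.COM pCDH-empty 1, 7 were above 0 and 3 below, at a median of 0.083. The values of ITGB8, ITGA1 and ITGA2 were then below 0 and that of ITGA3 above it. ITGB1, ITGB3 and ITGA5 were higher without overlap in both lines, 3 of 10 beside 6.09% of all genes.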

How the data were processed

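RNA-seq libraries of MCF10A and DCIS.COM cells with pCDH-empty or pCDH-HOTAIR were analysed, 2 per group. The authors aligned reads to hg19 (GRCh37) with Rsubread, counted them per gene with featureCounts, and deposited log2 CPM values made with edgeR. Whether counting used strand, and how reads on overlapping genes were assigned, is not given in the sources used here.

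From the deposited log2 values, whole reads were recovered here (100% of values within 0.1 read), and totals ran from 19306864 to 34884841 per library. Depth limits the rare subunits most. Levels per length used the canonical transcript of GENCODE release 44 on GRCh37. All comparisons came from a single limma 3.58.1 fit (R 4.3.3) of 4 group means with a mean-variance trend over 13771 genes, tested on simulated data beforehand. Calls needed a Benjamini-Hochberg adjusted p under 0.05 and at least a 1.5-fold change, the latter not being asked of the difference of HOTAIR effects. Python 3.11.15 with numpy 2.4.6, pandas 2.3.3 and scipy 1.17.1 was used for the rest. Alternatives were pseudocounts of 0.1 and 1, a mean CPM of at least 2, median centring, quantile normalization, loess on length or GC content, no trend, limma-voom, a replicate block, other fold thresholds, separate fits and each library left out.

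The rule for named genes took all 10 subunits, HOTAIR, ITGA6 and ITGB4, list genes called with HOTAIR, up to 3 called list genes in each direction for pCDH-empty, and the most similar gene of each subunit. The members and lists were chosen with earlier results of these data known.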

Additional observations from a re-analysis of the deposited data

How the results depend on the processing

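No call changed its direction under the alternatives, and the numbers of subunits called stayed at 0 with HOTAIR in MCF10A. Subunits were called with HOTAIR in DCIS.COM, and for the difference of the HOTAIR effects, only without DCIS.COM pCDH-empty 2. Calls over all genes were also most numerous there. The remaining library is the one that stood apart and is assumed to vary like the other groups, so these calls are not read as results. The log2 fold change of ITGB8 with HOTAIR in DCIS.COM was then 0.62. The difference of the effects was 0.86 for ITGB8, 0.46 for ITGAV, -0.43 for ITGA3 and -0.42 for ITGA5. Between the lines, 8 to 9 were called with pCDH-empty and 8 with pCDH-HOTAIR when a library was left out. At a log2 fold change of at least 1.5, the threshold in the study's methods, 4 were called with pCDH-empty and 4 with pCDH-HOTAIR (ITGB1, ITGB3, ITGA5 and ITGA1 in both). With the GC correction, chosen after seeing the data, 7 were called with pCDH-empty.

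Over all genes, calls with HOTAIR in MCF10A numbered 3, but 6 with a pseudocount of 1, 5 with limma-voom, 16 with the GC correction, 2 with median centring or quantile normalization, 1 in the separate fit or at a log2 fold change of 1.5, and 1 to 51 with a library left out. In DCIS.COM they numbered 12, but 51 with the GC correction, 6 without the trend, 0 in the separate fit, 1 at a log2 fold change of 1.5, and 1 to 1403 with a library left out. For the difference they numbered 6, but 10 with a pseudocount of 1, 9 with the length correction, 23 with the GC correction, 0 without the trend, and 0 to 4414 with a library left out. Between the lines, 6370 and 6018 genes were called, against 2418 and 2357 at a log2 fold change of 1.5. The cause of these shifts was not tested.

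With the replicate number as a block (replicate block), 0, 0 and 0 subunits were called in the HOTAIR comparisons and their difference, and 9 and 8 between the lines, while all-gene calls became 2, 20, 0, 6378 and 6031. The deviations of same-numbered libraries from their group means had correlations of -0.016 to 0.066 over all genes. The labels do not say what the number stands for. Depth limits ITGB3, with 16 to 45 reads in MCF10A, and ITGA1, with 55 to 117 in DCIS.COM.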

Other observations

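In the HOTAIR comparisons, no gene of the ligand, adaptor, latent TGF-beta or other integrin lists was called by limma. In MCF10A, 14 of the 16 ligands and 24 of the 29 adaptors had a log2 fold change above 0 (medians 0.24 and 0.11), and 6 and 3 had an unadjusted p-value under 0.05. In DCIS.COM, 6 of the 16 ligands and 7 of the 29 adaptors were above 0 (medians -0.055 and -0.041), and 4 and 5 had an unadjusted p-value under 0.05. For the difference of the effects, unadjusted p-values were under 0.05 for 5 ligands and 7 adaptors, and no gene of these lists was called. Over all genes, 7.28% had an unadjusted p-value under 0.05 in MCF10A, 17.5% in DCIS.COM and 10.5% for the difference. All 7 genes of the latent TGF-beta list were above 0 in MCF10A (median 0.21) and 3 of 7 in DCIS.COM (median -0.022). In log2 CPM, LTBP3 was 5.71 and 5.43 in DCIS.COM pCDH-empty 1 and 2, and 5.56 and 5.53 in DCIS.COM pCDH-HOTAIR. LTBP2 was 3.58 and 3.32, and 3.51 and 3.33. Both were lower with HOTAIR only while pCDH-empty 1 was included, so the DCIS.COM count and median depend on that library. The ligand and adaptor values above also include it. Over all genes, 6568 were above 0 and 7128 below in MCF10A, and 7158 and 6569 in DCIS.COM.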
